A study of Drosophila pseudoobscura with 29 samples.

Results

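The 9 genes of the heat shock and chaperone set were chosen by name and by D. melanogaster orthologue identifier, with no measured value in the rule: Hsp23 (FBgn0001224), Hsp26 (FBgn0001225), Hsp27 (FBgn0001226), Hsp22 (FBgn0001223), Hsp83 (FBgn0001233), Hsc70-3 (FBgn0001218), Hsp60 (FBgn0015245), Hsf (FBgn0001222) and l(2)efl (FBgn0011296). Of these 9 identifiers, 7 matched among the 8466 genes of the expression table and all 7 passed the filter on low values, while Hsp27 and Hsp60 were not analysed here. Whole embryos of the wild-type reference genome strain of Drosophila pseudoobscura were collected without any labelled treatment over the first 29 h after egg laying. Each of the 29 collection windows spanned 1 h and gave 1 library, so no window had a replicate. Promoter activity was measured by RAMPAGE, which sequences cDNAs complete at their 5′ end, so that each read marks a transcription start and a gene's level does not grow with its transcript length. Levels are reads per 1000000 reads (RPM), and the library of 27-28 h, which held 1011 reads, was left out of the values below.

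The other 28 libraries held between 723775 and 11862896 reads in clusters of adjacent transcription starts (TSCs), each of which is taken as 1 promoter, with a median of 3283583. A count of 0 allowed up to 3 reads, which was between 0.25 and 4.12 RPM depending on the library. Intervals on reads and on shares are 95% intervals and cover counting error only. Because whole embryos were assayed, fewer cells of a type and less RNA per cell cannot be told apart, and an RPM value is a share of the RNA starts at that age.

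Molecular chaperones hold other proteins in a foldable state, and many of their genes are known as heat shock genes because heat induces them through the heat shock transcription factor Hsf, which binds heat shock elements in their promoters. Several are also transcribed in unstressed animals. In D. melanogaster Hsp83 and some small heat shock genes of chromosome band 67B are known for transcripts that nurse cells load into the egg. Such maternal RNAs are cleared around the time when the zygotic genome takes over. Hsp83 encodes the cytosolic Hsp90 chaperone, Hsc70-3 the Hsp70 chaperone of the endoplasmic reticulum (BiP), and Hsp22, Hsp23, Hsp26 and l(2)efl small chaperones with an alpha-crystallin domain.

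All 7 genes changed over the course, but they did not share a profile. Hsp26 was highest in the first 3 windows, Hsp22 in the first 5, Hsc70-3 peaked in mid-embryogenesis, Hsf declined late, l(2)efl appeared late, and Hsp83 stayed abundant throughout. The question put to the time series was which genes depend on age, and it was tested with a spline of the start hour (limma, F-test, adjusted over all genes). In that test 7 of 7 genes were called, with adjusted p-values between 7.52e-15 for l(2)efl and 0.0141 for Hsp83, but 91.2% of the 8445 genes tested were called too, so the count by itself is no feature of these genes. For Hsp83 this call was lost without the 0-1 h library (limma, adjusted p = 0.0548) and under upper-quartile scaling (adjusted p = 0.204), and edgeR on recovered reads gave an adjusted p of 0.214.

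Between the fitted start hours 0 and 28, Hsp23 and l(2)efl rose (2 of 7, against 23.3% of all genes called higher) and Hsp26 and Hsf fell (2 of 7, against 22.9% called lower), while 3 genes did not pass the test. The median fitted difference was -0.70 on the log2(RPM + 1) scale over the 7 genes and -0.22 over all genes. Under upper-quartile scaling the median over all genes moved to 0.14, so the 4 directions named here are relative to a reference that shifts by more than 0.1 with the scaling; none of the 4 directions turned under it.

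**Figure D1:**
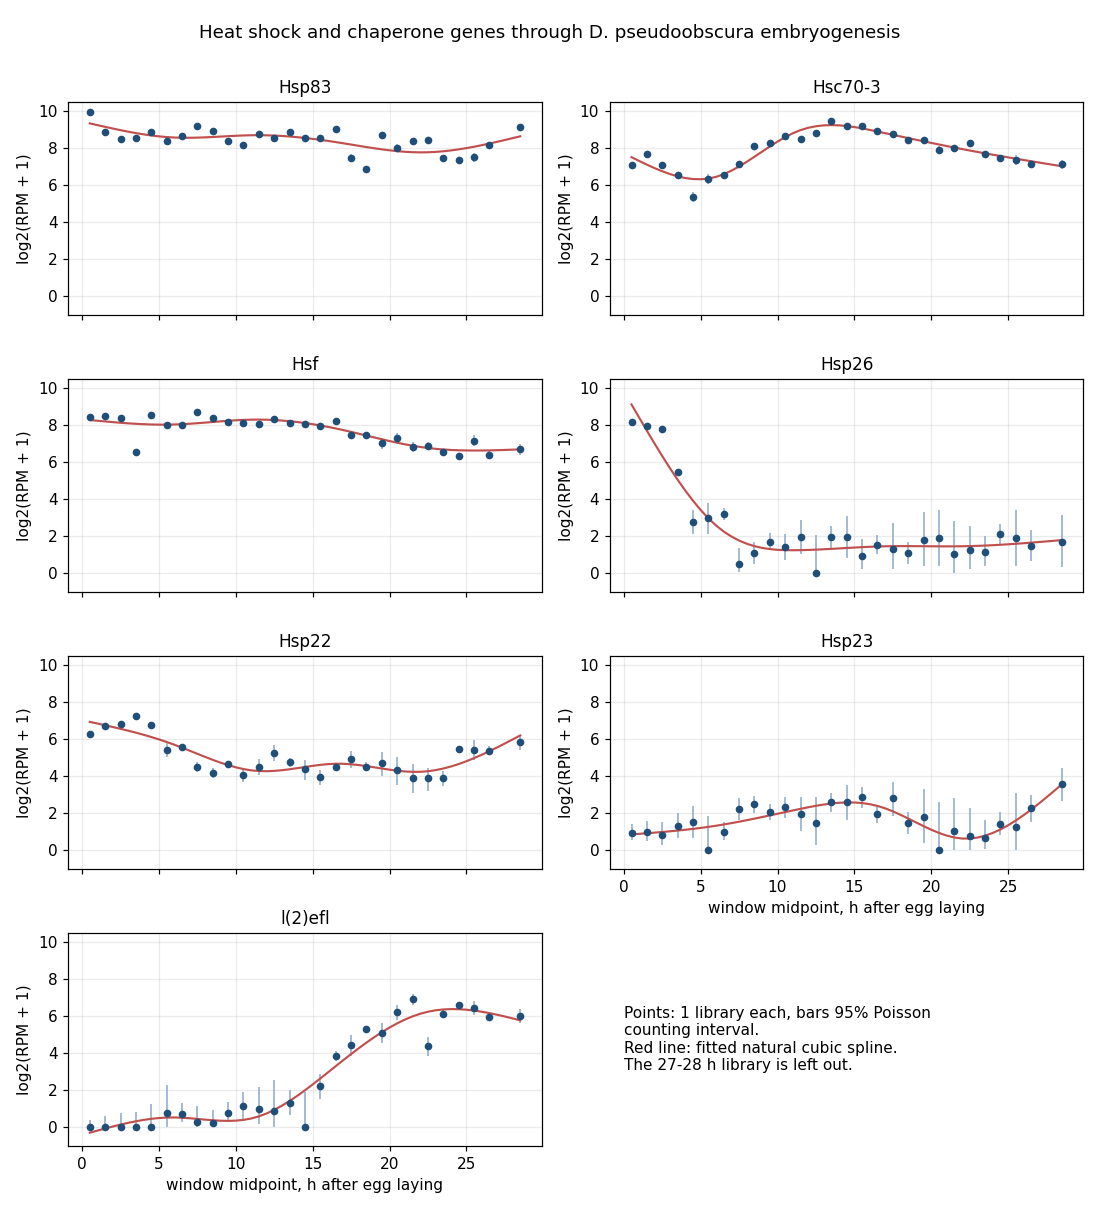
Level of each gene in 28 libraries as log2(RPM + 1) against the midpoint of the window in hours after egg laying; each point is 1 library, bars are 95% Poisson counting intervals and the red line is the fitted spline. Hsp26 falls from 285 RPM at 0-1 h to 5.96 RPM at 4-5 h, l(2)efl has 0 reads in the first 5 windows and reaches 120 RPM at 21-22 h, and Hsc70-3 peaks at 725 RPM at 13-14 h.

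Hsf, the transcription factor of the heat shock response, was present in every one of the 28 libraries. Its level had a lowest value of 80.0 RPM at 24-25 h, a median of 258 RPM and a highest value of 419 RPM at 7-8 h. The first 3 windows held 343, 366 and 331 RPM (mean 346 ± 17.7 SD over these 3 windows). The last 3 used held 144, 84.8 and 104 RPM (mean 111 ± 30.3 SD). The window after the first 3, at 3-4 h, held 92.3 RPM, within the range of the last 3. The course was also compared in 4 steps of 7 h. The decline of Hsf came mostly between start hours 14 and 21, where the fitted difference was -1.23 ± 0.25 (SE, limma, adjusted p = 0.000158), and 4 of 7 genes fell in that step (39.0% of all genes called lower). Over the whole course the fitted difference was -1.59 ± 0.47 (SE, limma, adjusted p = 0.00662). That whole-course call was lost without the 0-1 h library (difference -1.43, adjusted p = 0.0535), without the 28-29 h library (difference -1.61, adjusted p = 0.0876) and under upper-quartile scaling (difference -1.12, adjusted p = 0.051).

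A single window broke the course of Hsf. Its level was 331 RPM at 2-3 h (95% Poisson interval 315 to 347), 92.3 RPM at 3-4 h (83.8 to 101, 431 reads) and 375 RPM at 4-5 h (352 to 399). The 3-4 h value thus lay 3.58-fold under the window before and 4.06-fold under the window after, outside the counting intervals of both. On the log2(RPM + 1) scale it lay -1.92 from the mean of its neighbours, where the median over all genes was 0 and 3.65% of genes lay as far from theirs in that window. None of the other 6 genes moved down by more than 0.14 in the same window. Of these, l(2)efl had 0 reads from 2 to 5 h and could not move down, and Hsp23 rested on 4, 7 and 5 reads. With 1 library at that age, a dip at this age and a dip in this library cannot be told apart.

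Nearly all Hsf reads came from 1 promoter. The TSC FBgn0079102_03, 161 bp wide at 6622435-6622595 on the minus strand of chromosome 3 (FlyBase r2.9), held 97.4% of them, and 3 further TSCs of the same gene held the rest. The small upstream TSC FBgn0079102_02, 375 bp upstream of the main one, held 3.36% of the reads at 6-7 h (95% Wilson interval 2.70 to 4.17) and 0.14% at 16-17 h (0.0476 to 0.411). The ratio of these 2 TSCs changed over the course (limma on the log2 ratio of RPM + 1, adjusted p = 3.97e-07), as it did for 71.4% of the 3968 genes with a pair of TSCs that could be compared.

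Hsp83, the cytosolic Hsp90 chaperone, was the most abundant of the 7 genes at the start and again at the end. Its level had a lowest value of 115 RPM at 18-19 h, a median of 374 RPM and a highest value of 982 RPM at 0-1 h. From 982 RPM in the first window it dropped to 463 and 366 RPM in the next ones, a 2.68-fold difference between 0-1 h and 2-3 h. Between 3 and 17 h the level stayed between 293 and 587 RPM. It was then uneven from window to window, with 180 RPM at 17-18 h, 115 RPM at 18-19 h (107 to 124) and 418 RPM at 19-20 h (374 to 465), and the last window held 562 RPM (514 to 614) after 181 RPM at 25-26 h and 287 RPM at 26-27 h. The 18-19 h library lay -1.24 from the mean of its neighbours on the log2(RPM + 1) scale, lower than all but 1.88% of genes in that window.

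Of the 4 steps, Hsp83 passed the test only between start hours 14 and 21, with a fitted difference of -0.77 ± 0.31 (SE, limma, adjusted p = 0.0326). This call was lost without any one of the libraries of 13-14, 15-16, 16-17, 23-24, 24-25, 25-26 or 28-29 h, where the difference ranged from -0.75 to -0.51 and the adjusted p reached 0.187. It was also lost under upper-quartile scaling (difference -0.45, adjusted p = 0.241), with 3 degrees of freedom (difference -0.28, adjusted p = 0.147) and in edgeR (difference -0.28, adjusted p = 0.461). Over the whole course the fitted difference was -0.70 ± 0.57 (SE, limma, adjusted p = 0.339), so a change between the ends was not detected. That difference was -1.76 without the 28-29 h library and -0.0042 without the 0-1 h library.

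Hsp83 starts lay in 7 TSCs on the minus strand of chromosome XR. The main one, FBgn0012701_02, 138 bp wide at 4036702-4036839 of scaffold XR_group6, held 87.8% of the reads. Of the others, FBgn0012701_07 held 7.37% at 3134 bp downstream and FBgn0012701_04 held 4.40% at 1726 bp downstream, and the remaining 4 held under 0.2% each. Of these 4, FBgn0012701_01 (17 reads) lay 179690 bp upstream of the main TSC. The share of the main TSC was 88.8% at 0-1 h (95% Wilson interval 88.2 to 89.4), fell to 67.3% at 1-2 h (65.6 to 68.9) and was 79.2% at 2-3 h (77.3 to 80.9) and 88.9% at 3-4 h (87.3 to 90.3). In the same windows FBgn0012701_07 took 6.63%, 19.5%, 14.6% and 5.56%. Low shares of the main TSC returned at 17-18 h (73.1%, 67.1 to 78.4) and at 25-26 h (71.2%, 63.0 to 78.2).

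Over the 4072 genes with more than 1 TSC, the share of pooled reads outside the main TSC varied by library. It was highest at 25-26 h (10.8%), 1-2 h (9.72%) and 17-18 h (9.43%). In these windows Hsp83 also had its largest shares outside its main TSC, at 28.8%, 32.7% and 26.9%. At 2-3 h and 18-19 h the pooled share was 8.30% and 7.55%, when Hsp83 had 20.8% and 14.6% outside its main TSC. The range over the 28 libraries was 7.55% to 10.8%. For the median gene the share was 4.00% at 1-2 h, 4.39% at 17-18 h and 4.72% at 25-26 h, against 5.54% at 9-10 h and 5.57% at 13-14 h. The part of these differences between libraries in the Hsp83 shares was not tested. The ratio of the main TSC to FBgn0012701_07 followed no smooth course (limma on the log2 ratio, adjusted p = 0.386). By itself FBgn0012701_07 fell over the course by 2.33 ± 0.72 on the log2(RPM + 1) scale (SE, limma, adjusted p = 0.0125), and the main TSC did not pass the test over time (adjusted p = 0.0771).

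Hsc70-3, the Hsp70 chaperone of the endoplasmic reticulum, fell early, rose to a peak in mid-embryogenesis and declined again. Its level had a lowest value of 40.6 RPM at 4-5 h (33.3 to 49.0), a median of 251 RPM and a highest value of 725 RPM at 13-14 h (701 to 750), a 17.9-fold range. In the first 3 windows it held 134, 210 and 138 RPM, then 92.3 RPM and the minimum, 5.18-fold under the 1-2 h level. The early fall was not called as a step: between start hours 0 and 7 the fitted difference was -0.50 ± 0.34 (SE, limma, adjusted p = 0.292). With 3 degrees of freedom that difference was 1.18 (limma, adjusted p = 0.035), a call in the other direction. From 8 to 13 h Hsc70-3 climbed from 276 to 447 RPM, and after the peak it declined to 141 RPM at 28-29 h, 5.15-fold under the peak. The fitted rise between start hours 7 and 14 was 2.18 ± 0.21 (SE, limma, adjusted p = 2.97e-10). In that step 3 of 7 genes (Hsp23, Hsc70-3 and l(2)efl) were called higher and 1 (Hsp22) lower, against 31.2% and 15.9% of all genes. The fitted fall of Hsc70-3 between 14 and 21 was -1.16 ± 0.22 (SE, limma, adjusted p = 4.92e-05). That call was lost with a stiffer spline of 3 degrees of freedom (difference -0.27, adjusted p = 0.213). Its ends did not differ in the test, with a whole-course difference of -0.49 ± 0.41 (SE, limma, adjusted p = 0.343) that changed sign with the same spline.

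Over this course the TSC that held the most reads changed. RNA loaded into the egg and RNA made by the embryo cannot be told apart in these reads. The 5 TSCs of the gene lie on the plus strand of chromosome XL, and the most used over the series, FBgn0077997_01, is 99 bp wide at 3924526-3924624 of scaffold XL_group1e. The next, FBgn0077997_02, is 132 bp wide at 3925713-3925844, 1204 bp downstream. At 0-1 h the downstream TSC held 60.7% of the reads (888 reads, 58.2 to 63.2) and the upstream one 4.65% (68 reads, 3.68 to 5.85), and at 1-2 h the upstream share was 1.29% (0.82 to 2.04). By 7-8 h the order had turned, with 42.3% for the upstream TSC (38.4 to 46.2) and 27.5% for the downstream one (24.1 to 31.1). The upstream share then grew to 58.3% at 13-14 h and 87.2% at 22-23 h (83.8 to 90.0), when the downstream TSC was down to 6.05% (4.19 to 8.66).

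The levels of both TSCs changed, and not their shares alone. The upstream TSC went from 5.73 RPM at 0-1 h to 410 RPM at 13-14 h and 72.1 RPM at 28-29 h, a fitted whole-course rise of 3.64 ± 0.48 on the log2(RPM + 1) scale (SE, limma over all TSCs, adjusted p = 2.22e-07). The downstream TSC was highest at 1-2 h with 125 RPM and fell over the course by 2.46 ± 0.43 (SE, limma, adjusted p = 2.84e-05). Their log2 ratio rose by 6.10 ± 0.67 (SE, limma, adjusted p = 8.82e-09), of which 4.95 ± 0.56 came between start hours 0 and 7 (SE, limma, adjusted p = 3.09e-08). The TSC FBgn0077997_05, 4882 bp downstream of the first, broke the trend late. It took 46.6% of the reads at 25-26 h (37.7 to 55.6, 54 reads) after 8.32% at 24-25 h, and the upstream TSC dropped to 37.1% (28.8 to 46.1) in the same library. The later libraries did not return to the earlier shares, with 20.5% (16.8 to 24.8) at 26-27 h and 28.1% (20.9 to 36.7) at 28-29 h for FBgn0077997_05, and 56.7% and 52.9% for the upstream TSC. The 25-26 h library had the highest share of pooled reads outside main promoters over all genes, at 10.8%, and its part in these values was not tested.

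The tie between Hsc70-3 and these TSCs is not exact, and the shares above are shares of the reads of its 5 TSCs. Their summed reads made up 96.2% of the reads of the gene over the series, 150 of the 1613 gene reads at 0-1 h lay outside them, and no library had fewer gene reads than TSC reads, while the other 6 genes tied exactly, read for read, in all 29 libraries. Across the 21 TSCs of the 7 genes that passed the filter, 18 depended on age (limma), against 79.1% of the 25360 TSCs tested.

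**Figure D2:**
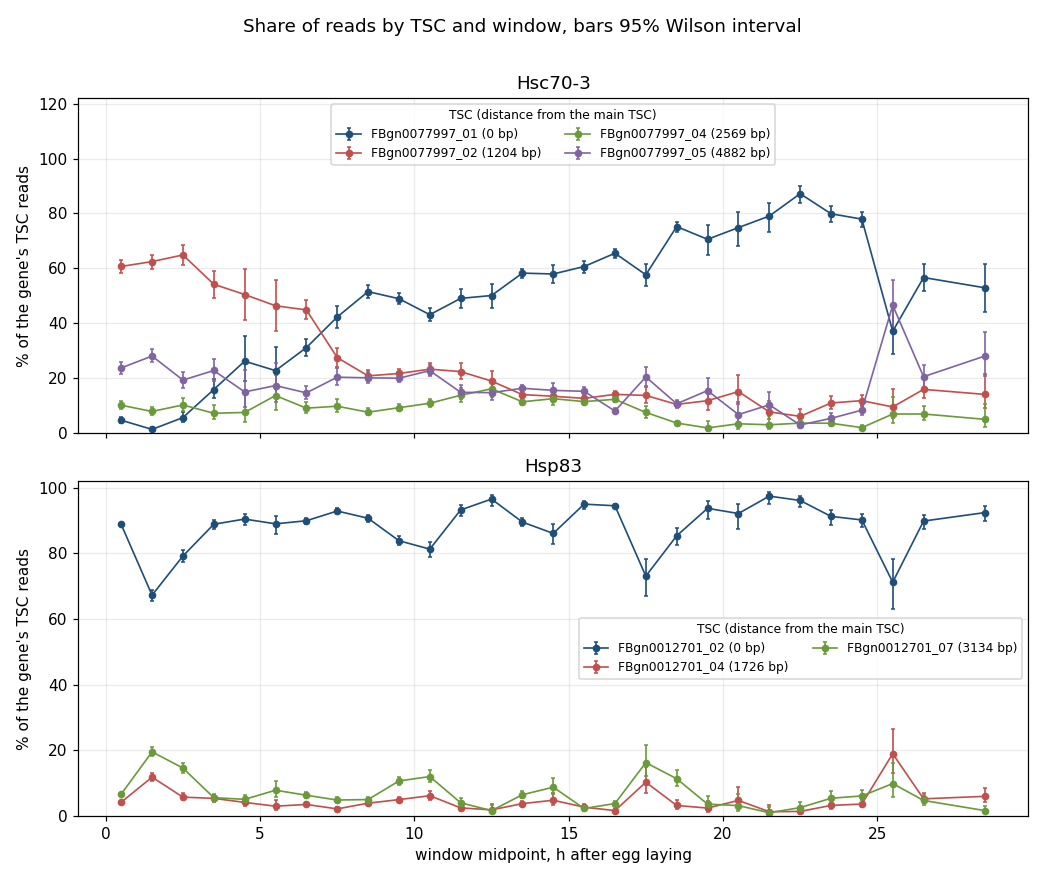
Share of the summed TSC reads of Hsc70-3 (top) and Hsp83 (bottom) that each of their larger TSCs held, in percent, against the midpoint of the window in hours after egg laying; points are single libraries, bars are 95% Wilson intervals and the legend gives the distance from the main TSC. In Hsc70-3 the upstream TSC goes from 4.65% at 0-1 h to 87.2% at 22-23 h while the TSC 1204 bp downstream goes from 60.7% to 6.05%; in Hsp83 the main TSC stays between 67.3% and 97.5%.

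Hsp26, a small heat shock gene, had the largest fall. It held 285 RPM at 0-1 h (275 to 294), 245 RPM at 1-2 h and 220 RPM at 2-3 h, then 42.8 RPM at 3-4 h and 5.96 RPM at 4-5 h (3.41 to 9.68, 16 reads). From there on it never rose above 8.28 RPM, and 10 of the 28 libraries held 3 reads or fewer. The 0-1 h level was 47.8-fold that of 4-5 h, and the 2-3 h level was 37.0-fold that of 4-5 h. Between the fitted start hours 0 and 7, 2 of 7 genes fell and 0 rose (limma, 20.8% of all genes called lower and 14.3% higher). The count of higher genes was 0 also at an unadjusted p under 0.05, and 2 (Hsp23 and l(2)efl) in edgeR. With 3 degrees of freedom, Hsp23 (difference 1.70, limma, adjusted p = 0.0137) and Hsc70-3 (difference 1.18, limma, adjusted p = 0.035) were called higher. Of the 2 that fell, Hsp26 was the steeper, at -7.35 ± 0.65 (SE, limma, adjusted p = 3.92e-10). Its whole-course difference was -7.33 ± 0.77 (SE, limma, adjusted p = 4.30e-09). The spline overshot the first window, where it gave 9.13 on the log2(RPM + 1) scale, and the observed difference between the last and the first library was -6.46. In edgeR the whole-course log2 fold change was -7.55 ± 1.13 (SE).

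The main Hsp26 TSC, FBgn0078020_01, is only 31 bp wide, at 1450687-1450717 on the plus strand of scaffold XR_group3a, against a median width of 67 bp over the TSCs assigned to genes (quartiles 22 and 114 bp). It held 94.6% of the reads. A second TSC, FBgn0078020_02, 506 bp downstream, held the other 5.39% and fell with it, by 3.91 ± 0.52 on the log2(RPM + 1) scale (SE, limma, adjusted p = 3.49e-07). The shares of the second TSC were 4.36%, 6.90% and 5.30% in the first 3 windows and 4.00% at 3-4 h (2.04 to 7.69, of 200 reads), and each later window held under 100 reads of the gene.

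Hsp22, a small chaperone known from D. melanogaster to reside in mitochondria, fell early and came back at the end. It held 77.9, 105, 113, 152 and 110 RPM in the first 5 windows, so that its highest level came at 3-4 h (141 to 164), when Hsp26 had already fallen. From 7 to 24 h it stayed between 13.8 and 37.6 RPM, with a minimum at 22-23 h (8.42 to 21.3, 20 reads), 11.1-fold under the peak. The last 4 windows used held 43.7, 42.6, 41.1 and 57.0 RPM, all above every value from 7 to 24 h. The fitted differences were -1.73 ± 0.49 between start hours 0 and 7 (SE, limma, adjusted p = 0.00589) and 1.97 ± 0.54 between 21 and 28 (SE, limma, adjusted p = 0.0102). In the last step 2 of 7 genes rose and 0 fell (limma, 12.4% of all genes called higher and 9.33% lower), while Hsc70-3 was lower at an unadjusted p under 0.05 and in edgeR (difference -1.25, adjusted p = 0.028). In edgeR the late rise of Hsp22 was 1.72 with an adjusted p of 0.0593.

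Between 7 and 14 h Hsp22 fell by 0.71 ± 0.29 (SE, limma, adjusted p = 0.0458), a call lost without any one of 15 libraries (0-1 to 4-5, 6-7, 9-10, 14-15 to 16-17, 18-19, 24-25 to 26-27 or 28-29 h), with adjusted p-values up to 0.132 and differences from -0.71 to -0.54. Its whole-course difference of -0.73 ± 0.58 did not pass the test (SE, limma, adjusted p = 0.317), and it was 0.034 without the 28-29 h library.

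The Hsp22 values are not its own alone. A second row of the table, FBgn0001228, carried identical values in all 29 libraries, so that the 2 genes cannot be told apart. The reads of this shared row were exactly the sum of 2 TSCs on the minus strand of scaffold XR_group3a that carry different D. pseudoobscura gene identifiers. FBgn0076646_01, 187 bp wide at 1454065-1454251, held 98.4% of them. FBgn0245688_01, 5 bp wide at 1454913-1454917 and 757 bp upstream, held 1.57% (85 reads) and had a course of its own. It had 1 read in the 0-1 h library, where the broad TSC had 934, and 19 reads at 16-17 h, which was 12.2% of the row in that window (7.94 to 18.2). Over the course it rose by 1.81 ± 0.57 on the log2(RPM + 1) scale (SE, limma, adjusted p = 0.0154), while the broad TSC had a difference of -0.82 ± 0.59 (SE, limma, adjusted p = 0.362). Which of the 2 TSCs belongs to Hsp22 was not settled with the files used here.

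Hsp23, a further small heat shock gene, was scarce throughout. It had 270 reads over 28 libraries, a median of 1.81 RPM, 8 libraries with 3 reads or fewer and 0 reads at 5-6 h and at 20-21 h. It held 0.92, 1.00 and 0.75 RPM in the first 3 windows, 6.39 RPM at 15-16 h (3.95 to 9.76, 21 reads) and 11.2 RPM at 28-29 h (5.36 to 20.6, 10 reads). The highest value was thus 14.8-fold that at 2-3 h, which rested on 4 reads. It rose by 1.04 ± 0.31 between start hours 7 and 14 (SE, limma, adjusted p = 0.0058), fell by 1.89 ± 0.33 between 14 and 21 (SE, limma, adjusted p = 1.44e-05) and rose by 2.88 ± 0.57 between 21 and 28 (SE, limma, adjusted p = 0.000562). Between 14 and 21 only l(2)efl of the 7 genes rose (21.3% of all genes called higher). The whole-course rise was 2.71 ± 0.61 (SE, limma, adjusted p = 0.000495), and its 3 calls in single steps were lost with a stiffer spline, under which the first of them had a difference of -0.16. All reads came from 1 TSC of 11 bp, FBgn0078209_01 at 1446336-1446346 on the minus strand of scaffold XR_group3a.

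These 3 small heat shock genes lie close together on chromosome XR. The Hsp23 and Hsp26 TSCs point away from each other with 4340 bp between them, and the Hsp26 and Hsp22 TSCs point towards each other with 3347 bp between them. Their highest windows were, in the order Hsp23, Hsp26 and Hsp22, 28-29 h, 0-1 h and 3-4 h. Within 12000 bp of the Hsp23 TSC, 16 TSCs were listed, of which 5 belong to these 3 genes.

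**Figure D3:**
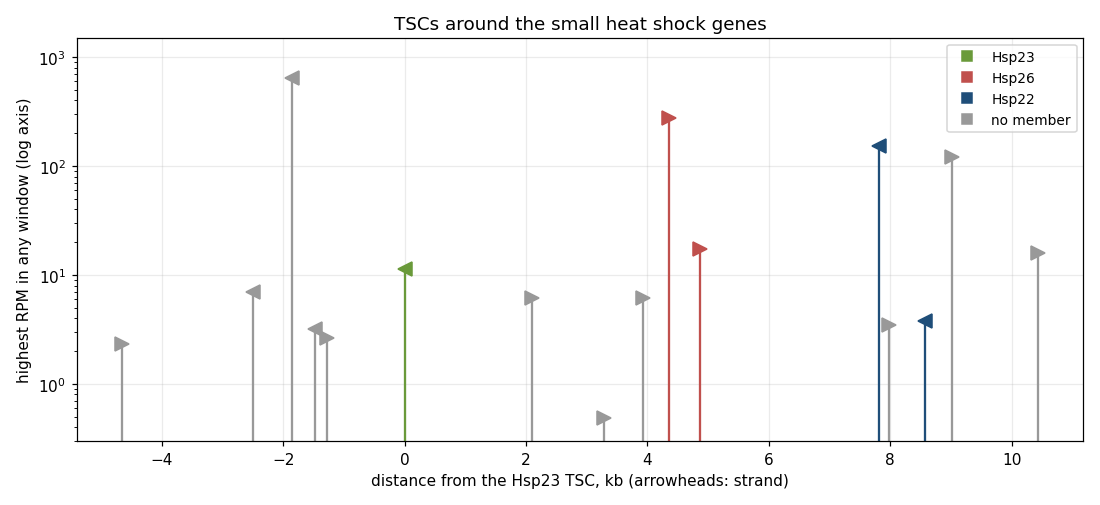
Highest RPM of each TSC in any of 28 libraries (log axis) against its distance in kb from the Hsp23 TSC; arrowheads give the strand and colours the gene. Hsp23 reaches 11.3 RPM, the main TSC of Hsp26 275 RPM and that of Hsp22 153 RPM, and the highest bar, 1861 bp to the left of Hsp23 and of a gene without a name in these files, reaches 647 RPM.

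The alpha-crystallin family gene l(2)efl was the one that appeared late. Its libraries of the first 5 windows had 0 reads, and from 5 to 15 h it stayed at 1.47 RPM or lower. It then rose from 3.65 RPM at 15-16 h (12 reads) through 13.4 RPM at 16-17 h and 38.1 RPM at 18-19 h to 120 RPM at 21-22 h (98.5 to 144), 32.8-fold its 15-16 h level. At 24-25 h it held 96.5 RPM (88.3 to 105, 510 reads), at least 386-fold higher than at 0-1 h if 3 reads are allowed there. The last window held 63.7 RPM (48.3 to 82.6). The fitted rise was 3.99 ± 0.41 between start hours 14 and 21 (SE, limma, adjusted p = 2.10e-09) and 6.07 ± 0.77 over the whole course (SE, limma, adjusted p = 1.22e-07). Between start hours 7 and 14 a rise of 1.55 ± 0.39 was also called (SE, limma, adjusted p = 0.00143). The levels observed at the ends of that step do not show it, with 0.22 RPM (1 read) at 7-8 h and 0 reads at 14-15 h. The fitted value at 14-15 h lay above the observed one, so this call does not place a rise before 15 h.

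The 22-23 h library stood out for l(2)efl, with 20.0 RPM (13.4 to 28.7, 29 reads) between 120 RPM before and 69.5 RPM after. It lay -2.14 from the mean of its neighbours on the log2(RPM + 1) scale, lower than all but 0.663% of genes in that window, where the median gene lay 0.25 above. The 21-22 h library before it lay 1.61 above the mean of its own neighbours, where 4.42% of genes lay as far. In the 22-23 h library Hsc70-3 held 316 RPM, above both of its neighbours at 258 and 208 RPM. Apart from l(2)efl, the deviations of the set there ran from -0.11 (Hsp23) to 0.53 (Hsp83). With 1 library at each age, a change at an age and a change in a library cannot be told apart. All l(2)efl reads came from 1 narrow TSC of 26 bp, FBgn0078245_01 at 9427888-9427913 on the plus strand of chromosome 3.

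**Figure D4:**
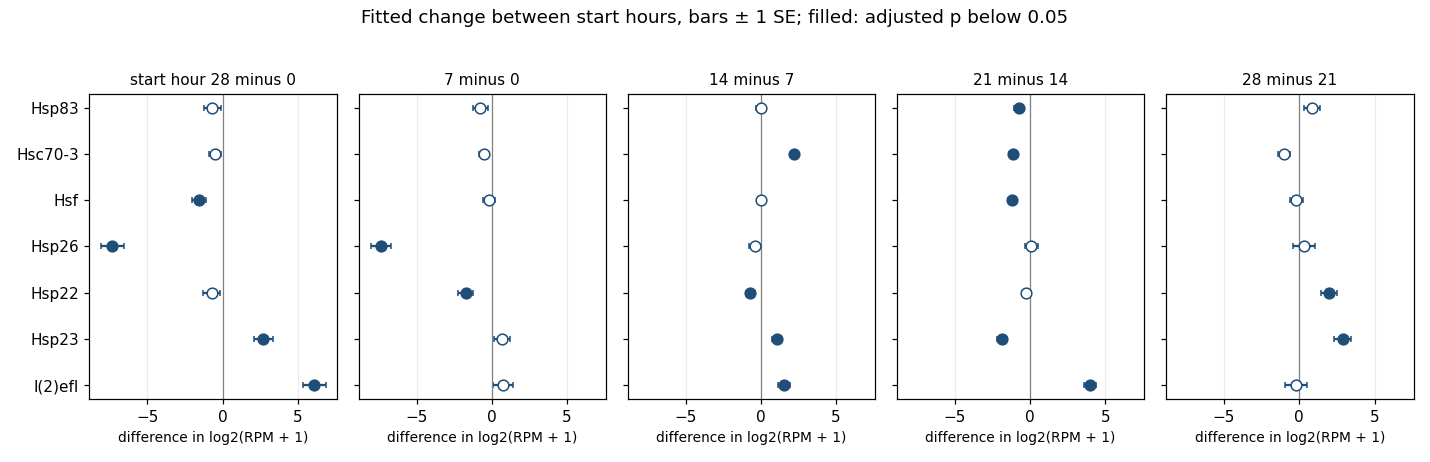
Fitted differences in log2(RPM + 1) between start hours for the 7 genes, over the whole course (left) and in 4 steps of 7 h; points are limma estimates from 28 libraries, bars are 1 SE, and filled points have an adjusted p below 0.05. Hsp26 has the largest fall (-7.33) and l(2)efl the largest rise (6.07) over the whole course, and 13 of the 28 step values are filled.

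The 7 profiles were mostly unlike each other. Over the 21 pairs, the median Pearson correlation of log2(RPM + 1) across the 28 libraries was 0.07, given as a description since the points share depth and order in time. The highest was 0.76 between Hsp26 and Hsp22 (Spearman 0.73), which were both high early, and the next was 0.52 between Hsp83 and Hsf (Spearman 0.59). The lowest were -0.79 between Hsf and l(2)efl (Spearman -0.73) and -0.68 between Hsp22 and Hsc70-3 (Spearman -0.62). Hsp23 did not follow its neighbours in the genome, with -0.38 against Hsp26 and -0.19 against Hsp22. Among all genes the profile most like l(2)efl was that of FBgn0002789 (Pearson 0.98, Spearman 0.96), followed by FBgn0039208 (Pearson 0.98, Spearman 0.90). The one most like Hsp26 was FBgn0005390 (Pearson 0.95, Spearman 0.67), followed by FBgn0034187 (Pearson 0.94, Spearman 0.59).

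The wider chaperone complement moved in both directions. Of 33 other chaperone and co-chaperone genes listed by D. melanogaster identifier from background knowledge, 24 matched the table, and 1 of these is the row shared with Hsp22. Over the remaining 23, 21 depended on age (91.2% of all genes did), 4 were higher at start hour 28 than at 0 (23.3% of all genes), 9 were lower (22.9%) and 10 did not pass the test (limma), with a median difference of -0.32 against -0.22 over all genes. Between start hours 7 and 14, 10 rose and 0 fell (0 also at an unadjusted p under 0.05, and 1 in edgeR), where 31.2% of all genes were called higher and 15.9% lower, with a median of 0.49 against 0.18 over all genes. Between 14 and 21, 2 rose and 15 fell, where 21.3% of all genes were called higher and 39.0% lower, with a median of -0.70 against -0.44. Hsc70-3 also rose in the first of these steps and fell in the second. The largest rises over the course were those of FBgn0086708 (6.32 ± 0.46, SE) and FBgn0001229 (4.57 ± 0.62, SE), and the largest falls those of FBgn0024352 (-2.02 ± 0.53, SE) and FBgn0026418 (-1.76 ± 0.44, SE). The files used here do not pair these identifiers with names.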

How the data were processed

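RAMPAGE libraries of whole D. pseudoobscura embryos were analysed, 1 per window. According to the study's methods, samples were barcoded at reverse transcription, pooled and sequenced on 1 lane, reads were aligned with STAR to FlyBase r2.9, peaks were called on the pooled series, and clusters over ribosomal DNA repeats were removed. The authors deposited RPM values for 8466 genes under D. melanogaster orthologue identifiers and for 26066 TSCs. The deposited TSC intervals carry a score of unstated meaning, of which only the positions were used, and a table of smoothed profiles was not used. The 2 RPM tables have their own value per read.

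Whole reads were recovered by dividing each library by its smallest nonzero value; 100% of values came within 0.1 of a whole number. Natural cubic splines (5 degrees of freedom) in the start hour were fitted to log2(RPM + 1), which understates changes of low genes, with limma 3.58.1 (R 4.3.3, trend, F-test and contrasts, Benjamini-Hochberg adjustment over all features with a maximum of at least 1 RPM, threshold 0.05, two-sided). With 1 library per window, errors are the scatter around a smooth course. Steps are differences of fitted values at start hours 0, 7, 14, 21 and 28. A single-window deviation is the log2(RPM + 1) of a window minus the mean of its neighbours. edgeR 4.0.16 (quasi-likelihood, TMM, filterByExpr) on the recovered reads was an alternative and called 7129 genes time-dependent, against 7706 by limma. Scripts were tested on simulated data.

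Genes were tied to TSCs by equal reads in all 29 libraries (for Hsc70-3, the nearest gene; for Hsp22, a sum of 2 genes). These ties and the test of TSC ratios, on the 2 TSCs of a gene with the most reads, were chosen after the values were seen. Shares have Wilson intervals and levels exact Poisson intervals; molecular identifiers were not part of the values used. The 7 genes were all named; of other genes, those with the largest changes or most like profiles were named by rank. Gene names come from the selection rule. The members and lists were chosen with earlier results of these data known. Other settings were a pseudocount of 0.1, a minimum of 10 RPM, no filter, 3 degrees of freedom, the 27-28 h library kept, upper-quartile scaling, and leaving out each library. Promoter sequence was not used here.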

Additional observations from a re-analysis of the deposited data

How the results depend on the processing

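With the 27-28 h library of 1011 reads kept, 5 of the 7 genes depended on age (limma adjusted p = 0.0809 for Hsf and 0.0933 for Hsp83), 1 gene was higher and 4 lower over the whole course, 6 step changes were called, and the late rise of Hsp22 became -0.33; Hsf, with 1 read in it, stood there at 983 RPM. Upper-quartile scaling left 1 gene lower over the whole course. With 3 degrees of freedom the change of Hsp23 between start hours 7 and 14 became -0.16 and the whole-course change of Hsc70-3 0.087; the cause was not tested. Leaving out each library in turn, 7544 to 7718 genes and 6 to 7 of the 7 depended on age, 2 to 2 were higher and 1 to 2 lower over the whole course, 11 to 14 step changes were called, and the whole-course change of Hsp22 ranged from -1.49 to 0.034. With TSCs of at least 10 RPM, 11723 were time-dependent against 20059, since fewer were tested. The median pairwise correlation was -0.077 on RPM without log and 0.018 with the 27-28 h library. Of the 15 step changes that were not called, 12 changed sign and 8 passed the threshold under some setting; in edgeR the early change of l(2)efl was 5.88 (adjusted p = 0.00221), from windows with 0 reads. The Hsp26 TSC ratio lost its call with a pseudocount of 0.1 (adjusted p = 0.18). No paired analysis was possible because each window holds 1 library. The search for heat shock elements and core motifs in promoters was not run, as no sequence of this genome was used. After 5 h, depth limits Hsp23 and Hsp26, with 3 reads or fewer in 8 and 10 of the libraries.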

Other observations

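Hsp23, Hsp26 and the Hsp22 row lie together on chromosome XR, and their surroundings were read after the values were seen. The most used TSC there belongs to none of the 7 genes. FBgn0078212_02, 31 bp wide at 1444465-1444495 (FlyBase r2.9, minus strand), lay 1840 bp from the Hsp23 TSC, held 647, 578 and 490 RPM in the first 3 windows and 182 RPM at 3-4 h, and was still at 138 RPM at 10-11 h, when Hsp26 was at 1.66 RPM. By 20-21 h it was at 4.13 RPM (3 reads), and at 28-29 h it held 47.3 RPM. Its gene had no row with the same reads in the gene table, and the files used here do not name it. Whether it is either of the unmatched genes of the set, Hsp27 and Hsp60, was not settled.

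At the other end of the group, the narrow TSC FBgn0245688_01 of the Hsp22 row and FBgn0246306_01 (18 bp wide at 1455351-1455368, plus strand) point away from each other with 433 bp between them. FBgn0246306_01 held the same reads as the table's FBgn0001229 and was at 0.84 RPM at 0-1 h, 121 RPM at 15-16 h, 118 RPM at 17-18 h and 32.7 RPM at 28-29 h. Of the 85 reads of FBgn0245688_01, 19 fell at 16-17 h and 14 at 18-19 h. In the RefSeq annotation of another assembly of this species (UCI_Dpse_MV25), Hsp67Bc, 1 gene without a name, Hsp22, a further gene without a name and Hsp26 follow each other in this order. That order alone does not settle which TSC of the Hsp22 row belongs to Hsp22. Rows that share all values with another row are not particular to Hsp22: 82 of the 8466 rows of the gene table do so.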
